A study of Macaca mulatta with 2 samples.

Results

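The metabotropic glutamate receptors GRM2, GRM3, GRM4, GRM5, GRM6, GRM7 and GRM8 were examined in the prefrontal cortex of infant rhesus macaques after repeated sevoflurane anesthesia. These 7 genes were taken by symbol from a table of read counts for 33618 genes, and all 7 were listed. All 7 also had at least 1 CPM (reads scaled to a common library size) in 1 or both libraries, as did 18050 genes of the table. The data were 1 library from a control macaque (CON 1) and 1 library from a sevoflurane-exposed macaque (SEV 1), both labelled as 28 days old. By the labels, sevoflurane was inhaled at about 2.5 to 3% for 4 h on days 7, 14 and 28. The results section of the paper gives the same days, while its methods give later days for the exposures after the first. The methods place tissue collection directly after the last exposure. The labels give no strain and no separate treatment for the control animal. The design names 3 animals per group, but the read counts held only 1 library of each group. With 1 library per group there is no replicate check, so every difference compares these 2 animals. Animal, sex (by the Y-linked reads given below), handling and anesthesia cannot be told apart.

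Metabotropic glutamate receptors are G-protein-coupled receptors that adjust synaptic transmission slowly, in contrast to the ion channels opened directly by glutamate. Group I receptors, to which GRM5 belongs, are mainly postsynaptic and act through Gq, phospholipase C and calcium release from internal stores. Group II (GRM2 and GRM3) and group III (GRM4, GRM6, GRM7 and GRM8) act through Gi/o and lower cyclic AMP, and many of them sit on presynaptic terminals, where they restrain glutamate or GABA release. GRM3 is also a receptor of astrocytes, and GRM6 is best known from the ON bipolar cells of the retina.

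Depth was 16960880 reads in CON 1 and 9839105 in SEV 1, a ratio of 1.72. A count of 3 reads, the upper limit that a count of 0 allows, corresponded to 0.179 and 0.302 CPM. Excitatory cortical neuron markers were present in both libraries (6 of 6, summed to 1652 CPM in CON 1 and 1738 CPM in SEV 1). Within this sum they differed in opposite directions, since NEUROD6 (log2 ratio -2.69) and FEZF2 (-1.14) were at least 2-fold lower, CUX2 (1.12) was at least 2-fold higher and TBR1 was at 0.57 (0.48 to 0.65). Reads on 7 Y-linked genes numbered 3 in CON 1 and 4308 in SEV 1. By these reads, CON 1 came from a female and SEV 1 from a male, so every ratio also compares the sexes. The paper lists only females as controls and both sexes in the anesthesia group. Oligodendrocyte markers were lower in the sevoflurane library, summed to 4056 against 1994 CPM. Of these, 5 of 6 were at least 2-fold lower, beside 5.47% of the 18050 genes with at least 1 CPM. Summed markers of oligodendrocyte precursors were at 372 and 255 CPM (4 of 4 detected). All 4 had intervals below equal expression (beside 28.1% of all tested genes), and GPR17 (log2 ratio -1.29) was at least 2-fold lower. Summed markers of inhibitory neurons were at 460 and 401 CPM (6 of 6), microglia at 224 and 241 CPM (7 of 7) and endothelium at 211 and 206 CPM (5 of 5). Among the inhibitory neuron markers, PVALB was higher (68 and 221 reads, log2 ratio 2.42), while GAD1, GAD2, SLC32A1 and SST had intervals below equal expression. Of the 7 microglia markers, 3 had intervals above equal expression and 1 below, beside 28.4% and 28.1% of all tested genes. C1QB (1.35), C1QA (0.55) and CSF1R (0.22) were higher and P2RY12 lower (-0.52). In bulk tissue, fewer cells of a type and less RNA per cell cannot be told apart.

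Of the 7 receptors, GRM4 was at least 2-fold higher in the sevoflurane library and none was at least 2-fold lower. This call needed a log2 ratio of at least 1 in size together with a 95% counting interval that left out equal expression. By the same rule, 7.56% of all tested genes were called higher and 5.47% lower. GRM3, GRM5 and GRM8 were lower by less than 2-fold, with intervals below equal expression. At any size, 28.1% of all tested genes had an interval below equal expression and 28.4% above. For GRM2, GRM6 and GRM7 the interval included equal expression. The median log2 ratio of the 7 receptors was -0.10, beside -0.0048 over all tested genes, whose lower and upper quartiles were -0.34 and 0.37. Intervals cover counting error only and leave out the variation between animals.

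**Figure D1:**
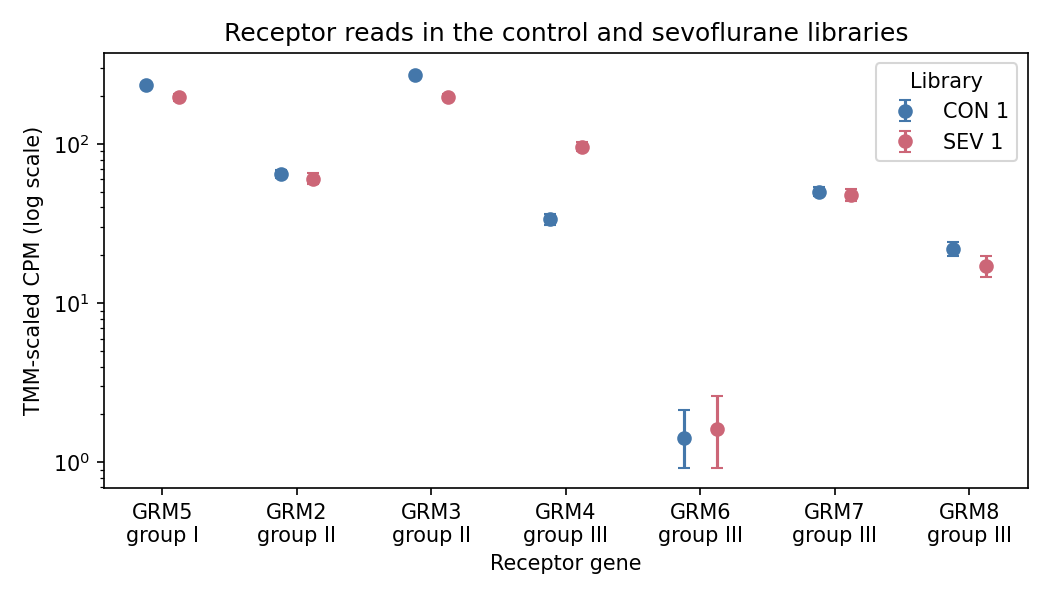
Scaled CPM (log axis) of each receptor gene in the control library (CON 1, blue) and the sevoflurane library (SEV 1, red), with exact 95% Poisson intervals as bars. GRM4 lies at 33.7 CPM in CON 1 and 96.2 CPM in SEV 1, while the other pairs lie close together. Heights of different genes are not corrected for transcript length.

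GRM5, the group I receptor examined, is a Gq-coupled receptor abundant in forebrain neurons. It had 3929 reads in CON 1 and 1952 in SEV 1, or 234 and 197 CPM. The level in the sevoflurane library was 84.1% of the control level, with a log2 ratio of -0.25 (95% interval -0.33 to -0.17). Thus GRM5 was slightly lower, and its ratio exceeded that of 30.8% of all tested genes.

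The group II receptors were lower together, by a summed log2 ratio of -0.38 (-0.45 to -0.31), and GRM3 carried most of this difference. GRM3 had 4584 reads in CON 1 and 1973 in SEV 1, or 273 and 199 CPM. Its level was 72.8% of control, with a log2 ratio of -0.46 (-0.53 to -0.38), the lowest of the 7 receptors. GRM2, a presynaptic autoreceptor, had 1089 and 602 reads, or 64.8 and 60.6 CPM. Its log2 ratio was -0.10 (-0.24 to 0.05), which was not distinguishable from equal expression at this depth. The reads on GRM3 were 4.21 times those on GRM2 in CON 1 and 3.28 times in SEV 1. This balance does not depend on the scaling between libraries, and the ratio of the 2 values was 0.779 (exact 95% interval 0.695 to 0.873). GRM3 was therefore lower relative to GRM2 beyond counting error.

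Astrocyte markers were set beside the GRM3 difference. They summed to 6170 CPM in CON 1 and 4309 CPM in SEV 1, and all 8 of 8 were detected in both. Of these, 5 had intervals below equal expression (beside 28.1% of all tested genes). GFAP (log2 ratio -1.35) and AQP4 (-1.38) were at least 2-fold lower (beside 5.47% of all tested genes). In contrast, the glutamate transporter SLC1A3 was higher (0.27, interval 0.24 to 0.31), as was SOX9 (0.99). The interval of S100B (0.0026) included equal expression. The part of the astrocyte markers in the GRM3 difference was not tested.

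GRM4 stood apart from the other receptors. It encodes a presynaptic group III receptor best known from cerebellar granule cell terminals, and it had 566 reads in CON 1 and 955 in SEV 1, although the latter library was the shallower. This came to 33.7 CPM (31.0 to 36.6) and 96.2 CPM (90.2 to 102). The level was 2.86-fold higher in the sevoflurane library (95% interval 2.57 to 3.17), with a log2 ratio of 1.51 (1.36 to 1.67). Among all tested genes, 681 (3.77%) had a larger ratio.

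The intervals of the other group III receptors all lay below that of GRM4. GRM7, a presynaptic receptor of low glutamate affinity, had 845 and 477 reads, or 50.3 and 48.0 CPM. Its log2 ratio was -0.07 (-0.23 to 0.10). GRM8, another presynaptic receptor, had 369 and 170 reads, or 22.0 and 17.1 CPM, with a log2 ratio of -0.36 (-0.63 to -0.09). GRM6 had few reads, 24 and 16, or 1.43 and 1.61 CPM, just above the filter of 1 CPM. At this depth its interval, -0.84 to 1.15, spans more than a 2-fold difference upwards, so no direction can be given. Of the retinal partners of GRM6, NYX had 0 reads in both libraries and TRPM1 had 8 in each. GPR179 had 342 and 220 reads, a log2 ratio of 0.12 (-0.13 to 0.37). LRIT3 had 23 and 29 reads and was at least 2-fold higher (1.02, 0.25 to 1.95), as were 7.56% of all tested genes.

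**Figure D2:**
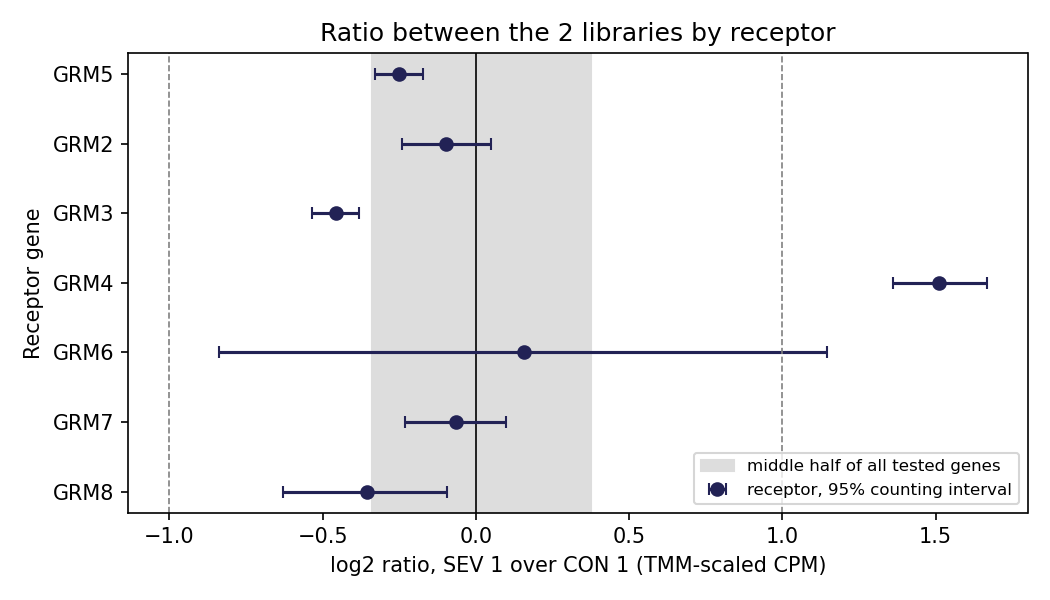
Log2 ratio of the sevoflurane over the control library for each receptor gene (points), with 95% counting intervals (bars); the grey band runs from the lower to the upper quartile of all 18050 tested genes and the dashed lines mark 2-fold. GRM4 at 1.51 is the only receptor beyond 2-fold, and GRM3 at -0.46 and GRM8 at -0.36 lie just below the band.

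As a result, the make-up of group III reads differed between the libraries. GRM4 took 31.4% of the group III reads in the control (exact Clopper-Pearson interval 29.2 to 33.6%) and 59.0% in the sevoflurane library (56.6 to 61.4%). GRM7 took 46.8% (44.5 to 49.2%) and 29.5% (27.3 to 31.8%). The reads on GRM4 were 0.670 times those on GRM7 in CON 1 and 2.0 times in SEV 1, a ratio of ratios of 2.99 (2.56 to 3.49). By contrast, the balance of GRM7 over GRM8, 2.29 and 2.81, had a ratio of ratios of 1.23 (0.985 to 1.53), which included no difference. The summed group III level was higher in the sevoflurane library (log2 ratio 0.60, 0.50 to 0.70), whereas without GRM4 the log2 ratio was -0.14 (-0.28 to -0.0048).

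Over all 7 receptors, 11406 reads were counted in CON 1 and 6145 in SEV 1, with a summed log2 ratio of -0.13 (-0.18 to -0.09). Without GRM4 this was -0.30 (-0.35 to -0.26). GRM4 made up 4.96% of the receptor reads in the control (4.57 to 5.38%) and 15.5% in the sevoflurane library (14.6 to 16.5%). The share of GRM3 was 40.2% (39.3 to 41.1%) and 32.1% (30.9 to 33.3%). GRM5 over GRM3, the most sequenced pair, went from 0.857 to 0.989, a ratio of ratios of 1.15 (1.07 to 1.25).

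**Figure D3:**
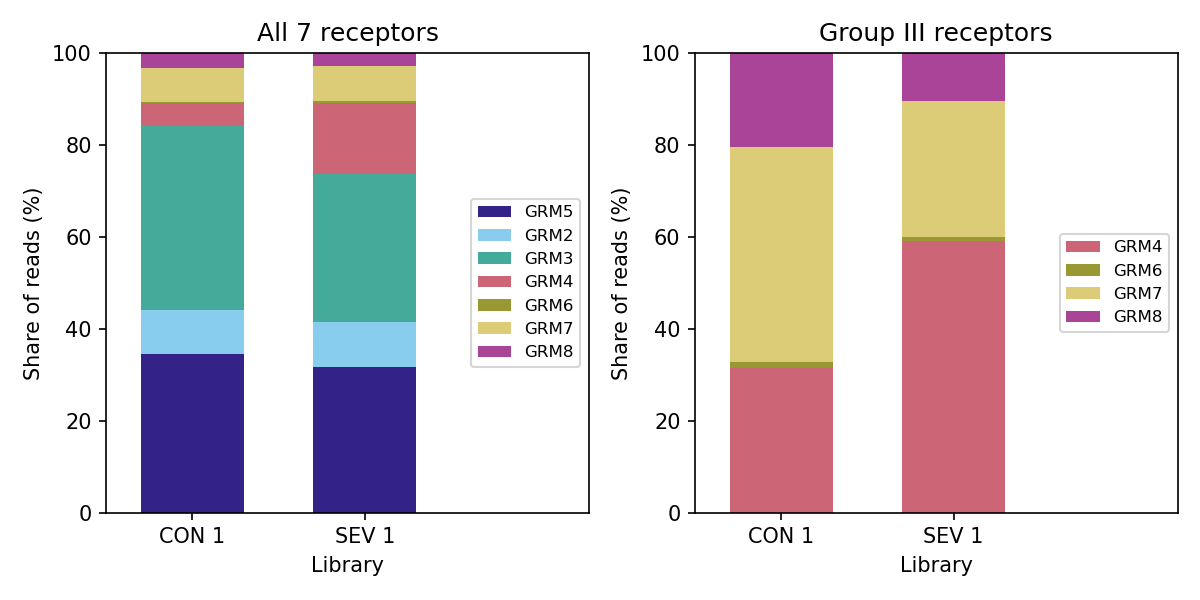
Share of reads (%) taken by each receptor gene in the control and sevoflurane libraries, among all 7 receptors (left) and among the 4 group III receptors (right). The GRM4 part widens from 4.96% to 15.5% of all receptor reads and from 31.4% to 59.0% of group III reads; shares are of reads and are not corrected for transcript length.

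Markers of other tissue were set beside the GRM4 difference. Of the cerebellar granule cell markers, GABRA6 had 1 read in CON 1 and 2 in SEV 1, and CBLN3 had 9 and 3. FAT2, the remaining one, was lower in the sevoflurane library (326 and 36 reads). Markers of striatal neurons (6 of 6 detected) summed to 183 and 167 CPM, with PPP1R1B at least 2-fold higher and PDE10A at least 2-fold lower. DRD1 (-0.48) and RGS9 (-0.95) also had intervals below equal expression. ADORA2A (0.40) had an interval above it, and that of DRD2 (-0.27) included it. Meningeal markers (4 of 4 detected) summed to 203 and 344 CPM, with COL1A1 (1.14) and COL1A2 (0.60) higher and the intervals of DCN (0.06) and LUM (-0.11) including equal expression. Blood markers summed to 24.5 and 79.7 CPM. HBB was higher (350 and 672 reads, log2 ratio 1.69) and HBA1 had 0 and 70 reads. HBA2 had 61 and 49 reads, and its interval (-0.13 to 1.01) included equal expression. The neuron markers, 6 of 6 detected, summed to 4236 and 3738 CPM. RBFOX3 (0.83) and SYN1 (0.06) were higher, while SYT1 (-0.40), STMN2 (-0.36) and ENO2 (-0.64) were lower. The interval of SNAP25 (0.02) included equal expression. PVALB, CUX2 and C1QB, given above, were each the only gene of their list at least 2-fold higher in SEV 1. By the same rule, 7.56% of all tested genes were higher, and NEUROD6 and FEZF2 were lower. No likeness to GRM4 can be read from 2 libraries. The part of any of these markers in the GRM4 difference was not tested.

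The genes that work with these receptors were described by 8 lists of known roles, which held 117 tested genes. By the 2-fold rule, 2 of these were higher (1.71%) and 4 lower (3.42%), shares below the 7.56% and 5.47% of all tested genes. At any size, 40 had intervals above and 44 below equal expression (34.2% and 37.6%, beside 28.4% and 28.1% of all tested genes). Their median log2 ratio was -0.04.

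Among 14 tested genes for glutamate release, uptake and recycling (median -0.05), 1 was at least 2-fold higher and 1 lower. Over all tested genes these shares were 7.56% and 5.47%. The intervals of 4 genes lay above equal expression and those of 7 below it, beside 28.4% and 28.1% for all tested genes. SLC17A6, the vesicular glutamate transporter VGLUT2, had 392 reads in CON 1 and 772 in SEV 1, a log2 ratio of 1.73 (1.56 to 1.92). SLC17A6 and GRM4 were thus both at least 2-fold higher, as were 7.56% of all tested genes. SLC17A8, the vesicular transporter VGLUT3, had 26 and 4 reads, with a log2 ratio of -1.62 (-3.92 to -0.41). SLC1A2, the main astrocytic glutamate transporter and the most sequenced gene of the list, was at -0.37 (-0.40 to -0.35). SLC17A7, the cortical vesicular transporter VGLUT1, was added with its values known and was at -0.13 (-0.16 to -0.09).

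N-acetylaspartylglutamate is a peptide transmitter that activates GRM3. Of the 5 tested genes for its synthesis and breakdown and for its precursor, 4 had intervals below equal expression and none above. Over all tested genes these shares were 28.1% and 28.4%. The median log2 ratio of the 5 was -0.28. RIMKLA, a synthetase of the peptide, had 2456 and 1178 reads and a log2 ratio of -0.30 (-0.40 to -0.20). NAT8L, which makes N-acetylaspartate, was at 0.01 (-0.12 to 0.13). ASPA, the enzyme that degrades N-acetylaspartate in oligodendrocytes, was at -1.13 (-1.76 to -0.60), beside the lower oligodendrocyte markers given above.

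Of 13 tested postsynaptic scaffold genes of group I receptors, 7 had intervals above equal expression (beside 28.4% of all tested genes), 5 included it and 1 lay below, with a median of 0.25. DLGAP3, a scaffold that links PSD-95 to SHANK proteins, had 4101 and 5114 reads and a log2 ratio of 1.08 (1.02 to 1.14), and was the 1 gene of the list past 2-fold. SHANK1, the most sequenced, was at 0.50 (0.46 to 0.54). SIAH1, a ubiquitin ligase that binds group I receptors, was lowest at -0.38 (-0.64 to -0.13). HOMER1, which binds the tail of GRM5, and its relative HOMER2 were singled out after their values were seen. HOMER1 had 3460 and 1997 reads and was at -0.03 (-0.11 to 0.05), while HOMER2 was at 0.83 (0.74 to 0.93).

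**Figure D4:**
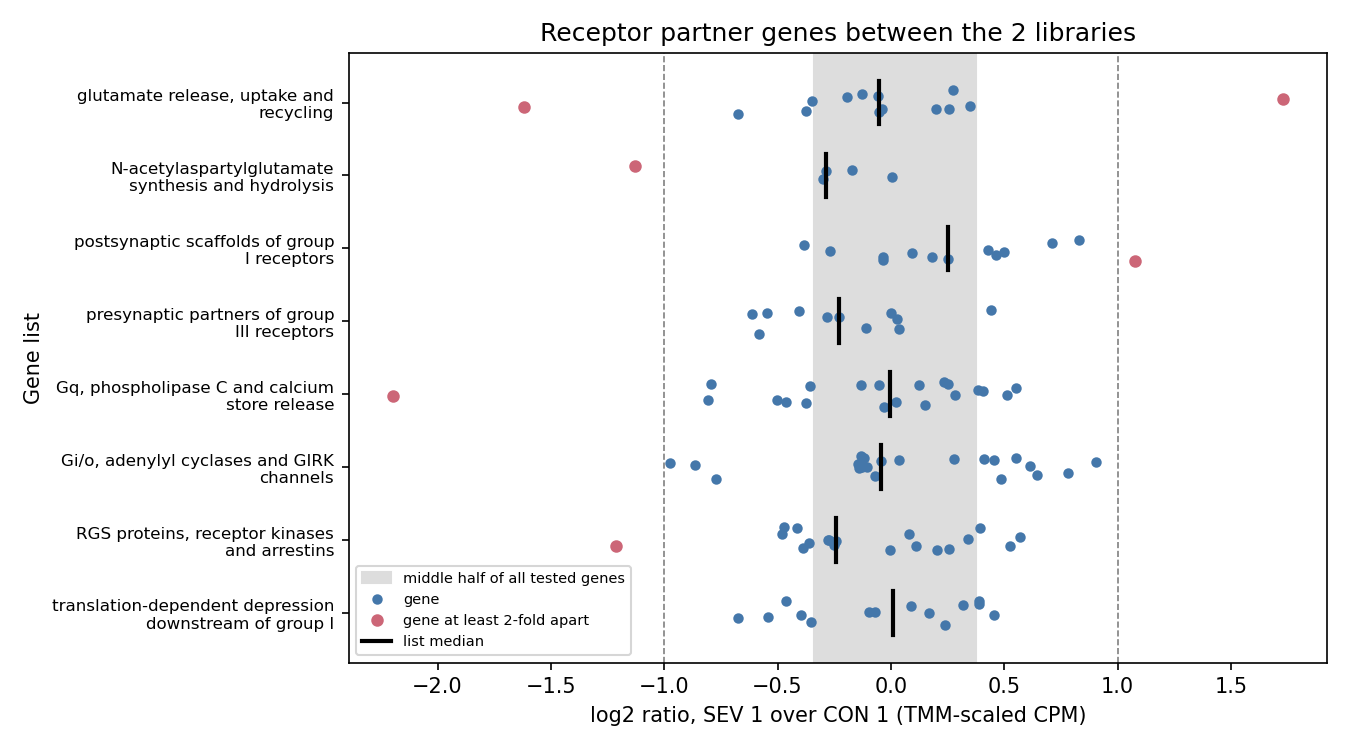
Log2 ratio of the sevoflurane over the control library for the tested genes of 8 lists of receptor partners (points, vertical spread only for legibility), with list medians as black bars, the quartile range of all tested genes in grey and 2-fold as dashed lines. Red points are the 6 genes at least 2-fold apart, and the highest is SLC17A6 at 1.73 and the lowest TRPC6 at -2.20.

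Downstream of Gq, 20 genes were tested (median -0.0033). Of their intervals, 7 lay above and 8 below equal expression, beside 28.4% and 28.1% for all tested genes. TRPC6, a diacylglycerol-gated cation channel, had 71 and 8 reads and a log2 ratio of -2.20 (-3.66 to -1.33). ITPR1, the calcium release channel of internal stores, was at -0.81 (-0.87 to -0.74). DGKZ, a diacylglycerol kinase, was at -0.36 (-0.40 to -0.32) and PRKCA, a protein kinase C, at 0.55 (0.49 to 0.61).

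Downstream of Gi/o, none of the 21 tested genes was 2-fold apart by the rule (median -0.04). By that rule, 7.56% of all tested genes were higher and 5.47% lower. Of their intervals, 9 lay above and 7 below equal expression, beside 28.4% and 28.1% for all tested genes. ADCY1, a calcium-stimulated adenylyl cyclase, had 23231 and 12553 reads and was at -0.13 (-0.16 to -0.10). ADCY9, another cyclase, was at 0.91 (0.79 to 1.03), and the G-protein subunit GNB4 was at -0.97 (-1.10 to -0.85).

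Of 11 tested presynaptic partners of group III receptors (median -0.23), none was 2-fold apart. By that rule, 7.56% of all tested genes were higher and 5.47% lower. The intervals of 2 partners lay above equal expression and those of 6 below it, beside 28.4% and 28.1% for all tested genes. ELFN2, an adhesion protein that binds group III receptors across the synapse, was at 0.44 (0.38 to 0.50). CALM2, a calmodulin gene, was lowest at -0.61 (-0.66 to -0.56). Among 19 RGS proteins, receptor kinases and arrestins (median -0.24), 5 intervals lay above and 6 below equal expression, beside the same 28.4% and 28.1%. ADRBK2, which encodes the receptor kinase GRK3, was at -1.21 (-1.86 to -0.68) from 129 and 32 reads. RGS4, which speeds the shut-off of Gq and Gi/o signals, was at -0.24 (-0.31 to -0.18), and the arrestin gene ARRB2 was at 0.57 (0.42 to 0.72).

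Finally, 14 genes of the translation-dependent synaptic depression that group I receptors set off had a median of 0.0086, and none was past 2-fold. By the 2-fold rule, 7.56% of all tested genes were higher and 5.47% lower. Of their intervals, 6 lay above and 5 below equal expression, beside 28.4% and 28.1% for all tested genes. ARC, which drives removal of AMPA receptors, was at -0.68 (-0.75 to -0.60). PTPN5, the phosphatase STEP, was at 0.46 (0.37 to 0.54), and CAMK2A, the most sequenced of the list, at 0.32 (0.29 to 0.34).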

How the data were processed

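Prefrontal cortex RNA of 2 macaques, 1 per group, had been sequenced on an Illumina platform. The authors deposited raw, whole-number read counts per gene symbol, 1 column per library. The submitters' processing notes name HISAT2 2.0.4, and the counting tool, genome build, annotation and strand setting are not given in the sources used here. Reads shared by overlapping genes or related receptors may therefore have been assigned in more than one way.

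Counts were scaled with edgeR 4.0.16 (TMM, R 4.3.3), and log2 ratios used a prior count of 2. CPM and folds carried no prior. Ratio intervals came from exact Clopper-Pearson limits, CPM intervals from the Poisson distribution, and ratios of ratios from the exact conditional odds ratio for 4 pairs (scipy 1.17.1). A gene was tested where CON 1 or SEV 1 reached 1 CPM. One library per group left no variance for edgeR's quasi-likelihood test, so no p-value is given. Steps were tested on simulated counts that held counting error only, so that test says nothing about variation between animals.

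No transcript lengths or sequences were at hand, so levels were not ranked between genes and the planned levels per length were not computed. Receptors and lists were chosen with earlier results of these data known. Partners named were those past 2-fold, the most sequenced of each list and, where fewer than 2 passed, the largest and smallest ratio among genes that reached 5 CPM in CON 1 or SEV 1. One gene that this rule names is not reported here. Other scalings (library totals, upper quartile and the size factors of DESeq2 1.42.0), a prior of 0.5, other filters, thresholds and interval widths and a control library sampled down in depth were tried. Intervals take reads as independent molecules, since no molecular identifiers are named.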

Additional observations from a re-analysis of the deposited data

How the results depend on the processing

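No paired analysis was possible because CON and SEV had 1 library each, and for the same reason no library could be left out. The log2 ratio of GRM4 ran from 1.51 to 1.82 over all settings, the highest being with the reads on the other 6 receptors as the reference, which was chosen after seeing the data. GRM3 ran from -0.46 to -0.43 and GRM5 from -0.25 to -0.22. GRM8 kept its value of -0.36 but lost its call with the wider interval (-0.81 to 0.08, from 369 and 170 reads), while GRM3, GRM4 and GRM5 kept theirs. The remaining 42 of 43 receptor values and all 4 receptor pairs kept their call. Partner list medians carry no call, and all 56 alternatives moved little beside the spread of genes within their list, a loose measure. The Gq median ran from -0.0033 to 0.023 and the translation median from -0.019 to 0.035, so their signs are not settled. The median of presynaptic partners ran from -0.26 to -0.17. Scaling by DESeq2 moved the log2 ratio of the median gene by 0.0052, the upper quartile by 0.01 and library totals by 0.027.

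How many genes were called 2-fold apart varied with the filter and the threshold, as their construction requires. With a filter of 5 CPM, 570 genes were higher and 501 lower, against 1364 and 988. At 1.5-fold there were 2604 and 2141, and at 4-fold 352 and 221. Depth limited GRM6 most, with 24 and 16 reads.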

Other observations

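Reads of genes that lie next to the receptors, by gene order in the RefSeq table of the macaque assembly T2T-MMU8v2.0, were compared with those of the receptors. That table held 6 of the 7 receptors by symbol. HMGA1, a chromatin protein gene beside GRM4, had 261 reads in CON 1 and 147 in SEV 1, a log2 ratio of -0.07 (-0.37 to 0.23). MLN, the motilin gene on the other side, had 4 and 1 reads. KIAA1324L, whose span overlaps that of GRM3, had 1707 and 1003 reads and a log2 ratio of -0.01 (-0.12 to 0.11), and so it was not lower as GRM3 was. SEMA3D, a secreted semaphorin gene beside GRM3, had 7 and 22 reads, with a log2 ratio of 2.06 (1.13 to 3.88). EDEM1 and LMCD1, on either side of GRM7, were at -0.07 (-0.36 to 0.21) and -0.37 (-0.93 to 0.15). Beside GRM2, TEX264 was at -0.17 (-0.31 to -0.03) and IQCF6 had 0 reads in both libraries. Beside GRM5, CTSC was at -0.01 (-0.28 to 0.26) and TYR had 10 and 0 reads. The pseudogene LOC705562, whose span overlaps that of GRM5, had 53 and 22 reads and was at -0.48 (-1.30 to 0.23). Beside GRM8, ZNF800 was at 0.12 (-0.01 to 0.25), and MIR592, whose span overlaps that of GRM8, had 10 and 0 reads. Neighbours not listed in the count table were left out.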
